A study of Mus musculus with 8 samples.

Results

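The insulin and insulin-like growth factor (IGF) genes described here are the ligands Igf1 and Igf2, the receptors Igf1r, Igf2r and Insr, the adaptors Irs1 and Irs2, and the IGF-binding proteins Igfbp2, Igfbp3 and Igfbp5. They are 10 of 18193 genes with a probe set of their own on the array, and were taken by name from the array annotation, which gives them 23 probe sets with a single symbol. A further probe set, shared by Igf2r and Airn, was kept apart. RNA came from mouse gonads at embryonic day 13, with 2 arrays in each of 4 groups. Sertoli cells were EGFP-positive cells sorted from XY gonads, about 22000 per sample, and pre-granulosa cells were EGFP-positive cells sorted from XX gonads, about 30000 per sample. The other groups were whole testes and whole ovaries, 4 gonads to a sample. All groups carried the Tg92 transgene on a C57BL6/J background, and the labels name no other allele and no treatment. The line is known to carry EGFP under Sry promoter sequence, which the labels do not state, so each sorted group is defined by the transgene's activity and not by a marker of the cell type. The labels do not say either that the 2 samples of each group were taken from different litters, and p-values then measure only the spread between these samples.

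IGF1, IGF2 and insulin are secreted ligands that activate the receptor tyrosine kinases IGF1R and INSR. IRS proteins dock on the active receptors and pass the signal to phosphoinositide 3-kinase (PI3K), AKT and the MAP kinases, which drive growth, metabolism and cell survival. IGF2R has no kinase and carries IGF2 to the lysosome, and the IGF-binding proteins hold the ligands outside the cell. In the fetal gonad the pathway is known for its part in sex determination, since XY mice that lack Insr, Igf1r and Insrr together fail to form testes, and for the growth of the Sertoli cell population.

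The sorted groups differed in the markers of their labels. Xist read 3.69 to 4.03 on XY arrays and 11.11 to 11.64 on XX arrays (log2 signal). Sertoli cells were set against pre-granulosa cells by limma, with calls at an adjusted p of 0.01. Of 10 Sertoli cell markers, 5 were called higher and 0 called lower, and of 8 pre-granulosa markers 0 were called higher and 4 called lower. Over all genes, 1.62% were called higher and 1.05% lower. Called or not, differences of the 10 Sertoli markers were all positive, from 0.10 (Wt1) to 6.49 (Dhh) on the log2 scale. Those of the 8 pre-granulosa markers were all negative, from -6.52 (Fst) to -3.35 (Rspo1). Of 7 germ cell markers, 2 read above 4.78 on both Sertoli arrays and 1 on both pre-granulosa arrays, while 7 did so in testes and 7 in ovaries. That level is the highest reading on XX arrays of 9 probe sets for Kdm5d, Uty and Eif2s3y, genes of the Y chromosome, and is used below as a mark of background. The ranked values of the sorted arrays and of the gonad arrays formed 2 separate scales, so sorted cells were compared with gonads only as a description. Some Sertoli markers read higher in pre-granulosa cells than in ovaries, as Sox9, with 9.46 and 10.56 against 8.07 and 8.41. Less the median difference of all probe sets, the Sertoli markers ran from -0.80 (Amh) to 2.29 (Cst9), with a median of 0.24. The purity of the sorted XX cells was not tested.

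The comparison of Sertoli with pre-granulosa cells addressed which genes differ between the XY and XX supporting cell lineages. The ligand transcripts were lower in Sertoli cells: Igf2 by 5.54-fold on its brighter probe set and Igf1 by 2.34-fold on one of its 4. Igfbp3 lay on the other side, with higher readings in both Sertoli arrays than in both pre-granulosa arrays, and did not pass the test. Igfbp5 had the largest difference of the 23 probe sets, -3.43 on 1422313_a_at, and was not called (limma adjusted p = 0.0462). Its other probe set was at -0.65. The receptors and the adaptors differed by less, and none of them passed. In all, 2 of 23 probe sets were called at an adjusted p of 0.01 by limma, both lower in Sertoli cells, against 1.81% of all probe sets called in either direction and 0.813% called lower. An unadjusted p under 0.05 was reached by 9 of 23, against 18.9% of all. The median difference, Sertoli minus pre-granulosa, was -0.55 over the 23 probe sets and 0.0065 over all probe sets, on the log2 scale.

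**Figure D1:**
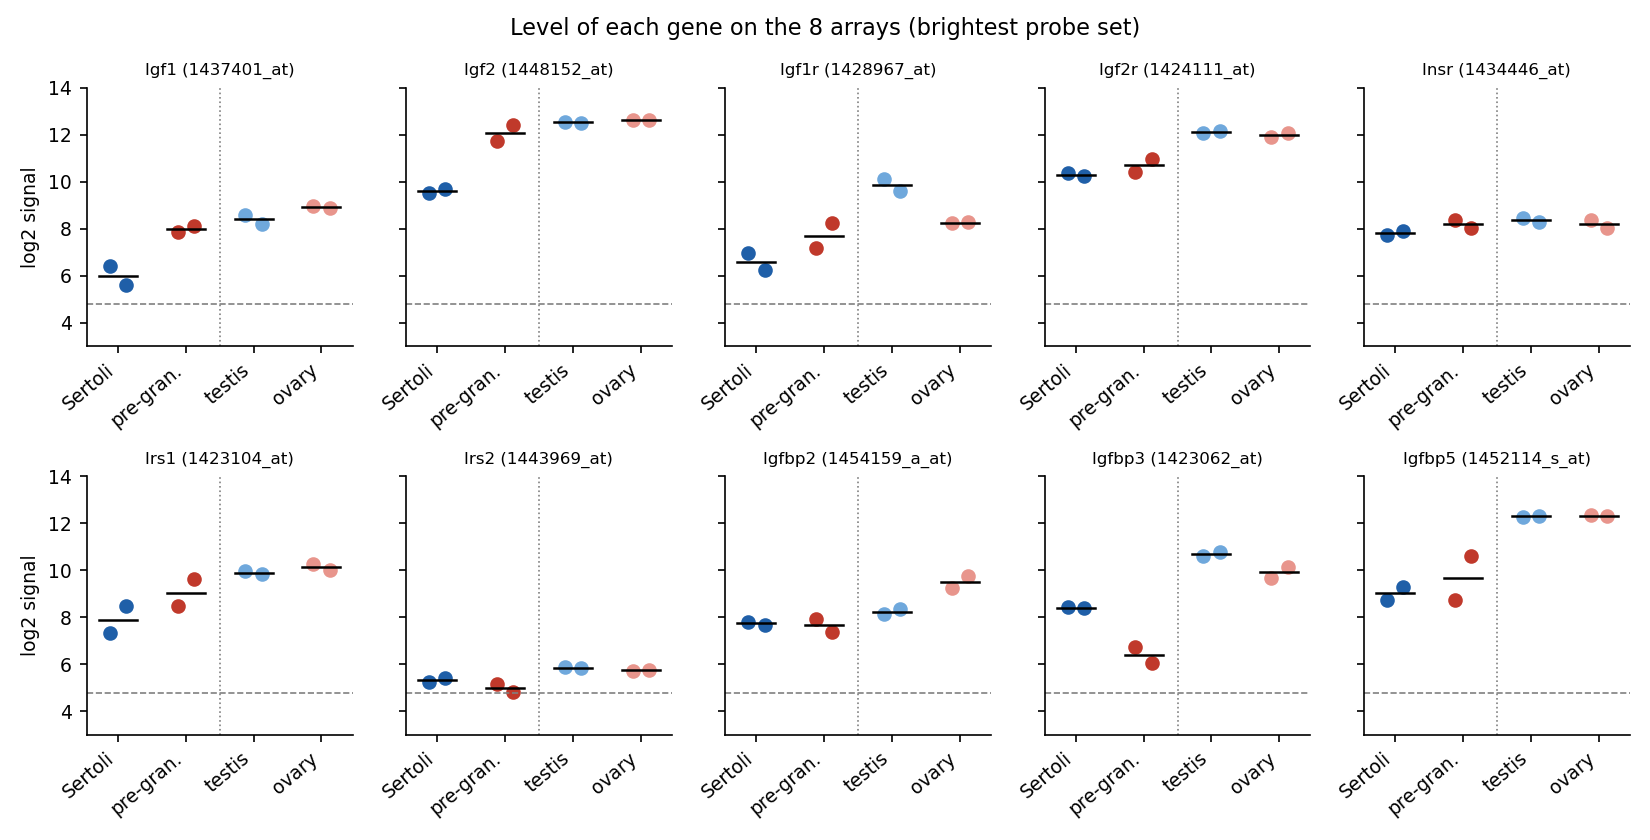
Log2 signal of each gene on its brightest probe set, 1 point per array and a bar at the group mean, for Sertoli cells, pre-granulosa cells, testes and ovaries from left to right. The dashed line marks the background level of 4.78 and the dotted line separates the sorted arrays from the gonad arrays, which have scales of their own. The 2 Sertoli arrays lie below the other 6 for Igf2, at 9.53 and 9.68.

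Igf2, the main fetal growth factor of the family, is imprinted and expressed from the paternal allele. Its brighter probe set (1448152_at) read 9.53 and 9.68 in Sertoli cells against 11.72 and 12.42 in pre-granulosa cells. In testes it read 12.55 and 12.49, and in ovaries 12.60 and 12.64. The sorted groups did not overlap, while all gonad readings lay between 12.49 and 12.64. The means were 9.60 ± 0.11 in Sertoli cells against 12.07 ± 0.49 in pre-granulosa cells (log2 signal ± SD, n = 2 each), a difference of -2.47 ± 0.24 (model SE, limma adjusted p = 0.00462). In such bulk samples, fewer cells of a type and less RNA per cell cannot be told apart. The difference was -0.10 ± 0.24 for testis minus ovary (limma adjusted p = 0.991). The difference between these 2 comparisons was -2.37 ± 0.34 and was not called (limma adjusted p = 0.0637). The call in sorted cells was lost without Sertoli replicate 1 or 2 (adjusted p = 0.0219 and 0.0241), without either testis array (0.0235) and without either ovary array (0.0184), with differences of -2.55 to -2.40. It held without either pre-granulosa array.

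The dimmer Igf2 probe set (1415931_at) read under 4.78 on all sorted arrays, with 3.47 and 3.43 in Sertoli cells against 3.82 and 4.17 in pre-granulosa cells. It therefore carries little information on the sorted cells. In the RefSeq table of GRCm38.p6 the next protein-coding gene to Igf2 on chromosome 7 is Ins2, one of the mouse insulin genes. Ins2 read 6.57 and 6.77 in the Sertoli arrays, 6.44 and 6.76 in the pre-granulosa arrays, 6.82 and 6.71 in testes and 6.66 and 6.83 in ovaries, with no group apart from another.

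Igf1, the ligand through which growth hormone acts after birth, had 4 probe sets. The one that was called (1452014_a_at) read 6.47 and 6.41 in Sertoli cells against 7.71 and 7.62 in pre-granulosa cells. Its values were 7.81 and 7.57 in testes and 8.58 and 8.69 in ovaries. The XY arrays lay below the XX arrays in both sets, with no overlap. The difference was -1.22 ± 0.15 for Sertoli minus pre-granulosa (limma adjusted p = 0.00923) and -0.94 ± 0.15 for testis minus ovary (limma adjusted p = 0.0718). The call rested at the threshold, since leaving out any 1 of the 8 arrays ended it (adjusted p of 0.0136 to 0.0447, with differences of -1.27 to -1.18).

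The brightest Igf1 probe set (1437401_at) read 6.39 and 5.58 in Sertoli cells against 7.87 and 8.10 in pre-granulosa cells. Its difference of -2.00 ± 0.29 was larger and was not called (limma adjusted p = 0.0159). Another (1434413_at) read 3.99 and 4.92 in Sertoli cells against 5.62 and 6.34 in pre-granulosa cells (-1.53 ± 0.36, limma adjusted p = 0.0698). The fourth (1419519_at) stayed under 4.78 on all sorted arrays, at 3.32 and 3.22 in the Sertoli arrays and 3.31 and 4.76 in the pre-granulosa arrays. The 2 brighter probe sets were thus lower on both Sertoli arrays than on both pre-granulosa arrays with readings above background, while 1434413_at was under background on 1 Sertoli array and 1419519_at gives no order. In gonads they did not line up: 1437401_at and 1452014_a_at were lower in testes than in ovaries on every array, 1434413_at was slightly higher in testes (9.40 and 9.33 against 9.23 and 9.13), and 1419519_at overlapped.

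**Figure D2:**
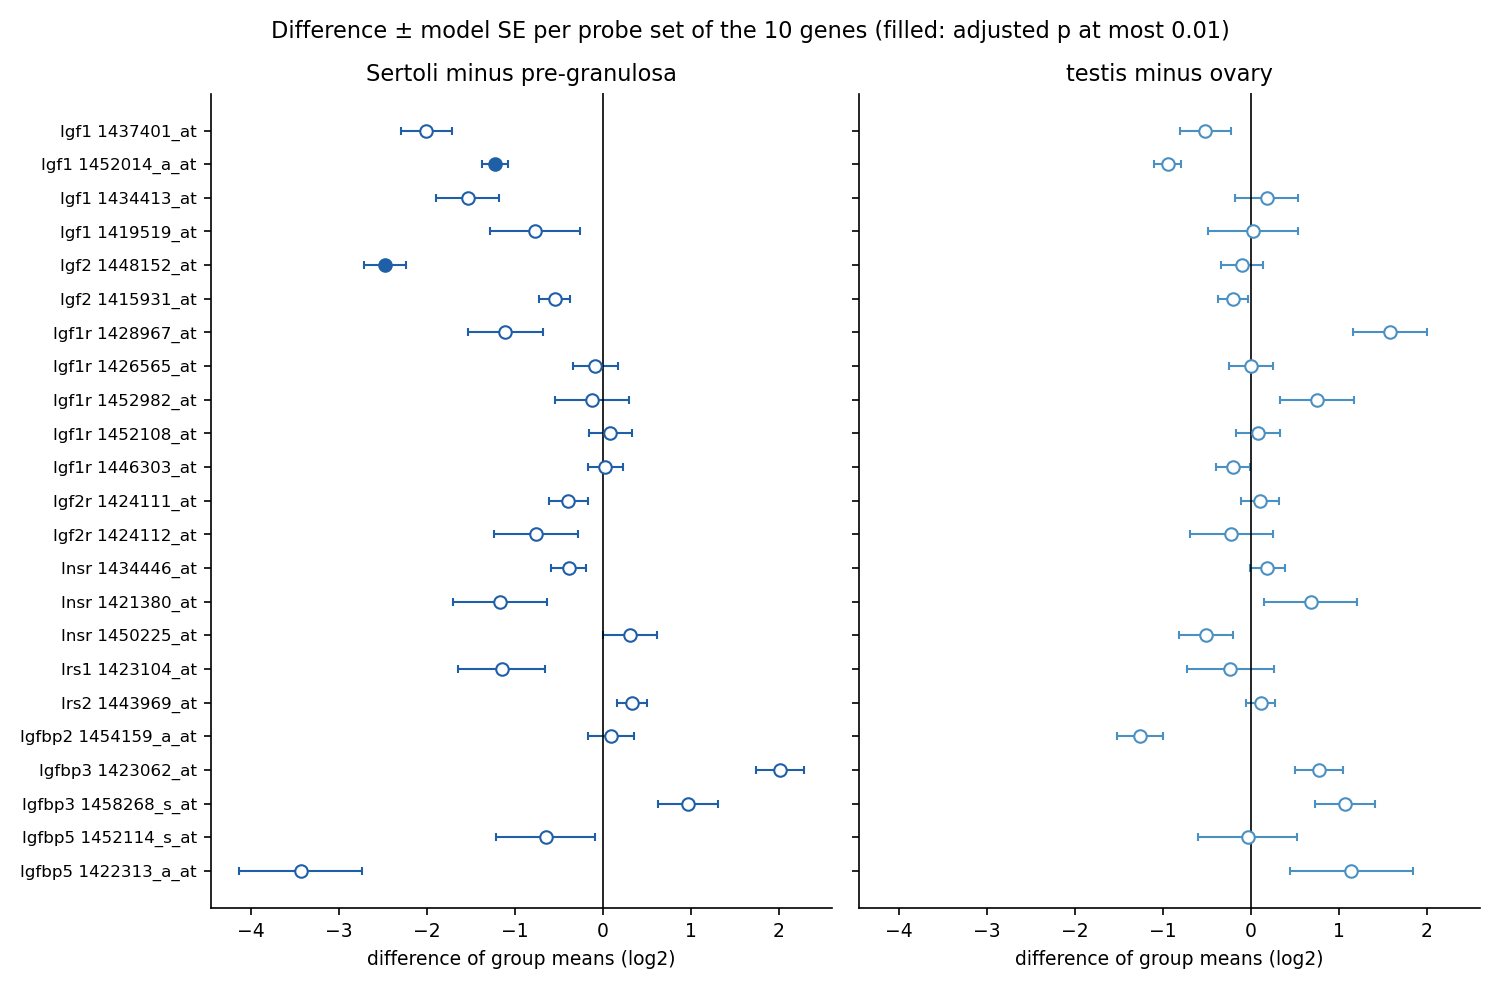
Difference of group means on the log2 scale with the model SE for each of the 23 probe sets, Sertoli minus pre-granulosa on the left and testis minus ovary on the right. Filled points passed limma's test at an adjusted p of 0.01: Igf1 1452014_a_at at -1.22 and Igf2 1448152_at at -2.47, both in the left panel.

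Sequence upstream of a start site is shown for Igf2 and Igf1, whose probe sets were called, and for Igfbp3, which had the largest difference in the other direction. RefSeq windows of 300 bases on GRCm38.p6 were at hand for 9 of the 10 genes, 13 windows in all, with Insr named only. Capitals mark the GC box GGGCGG, the core site of SP-family factors, searched on both strands with overlapping matches allowed. The Igf2 window is the most downstream of 4.
Igf2, chr7:142657447-142657746, minus strand: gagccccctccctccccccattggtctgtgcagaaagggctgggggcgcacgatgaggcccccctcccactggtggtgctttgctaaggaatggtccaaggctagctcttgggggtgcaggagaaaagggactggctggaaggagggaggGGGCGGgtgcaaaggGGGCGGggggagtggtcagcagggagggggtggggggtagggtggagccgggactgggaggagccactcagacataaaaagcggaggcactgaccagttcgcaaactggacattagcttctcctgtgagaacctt
Igf1, chr10:87860861-87861160, plus strand: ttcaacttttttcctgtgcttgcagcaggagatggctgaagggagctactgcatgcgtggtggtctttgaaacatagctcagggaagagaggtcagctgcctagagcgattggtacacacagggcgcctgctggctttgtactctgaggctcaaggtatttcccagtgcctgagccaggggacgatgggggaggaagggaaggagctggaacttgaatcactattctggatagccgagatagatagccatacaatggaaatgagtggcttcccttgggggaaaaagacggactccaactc
Igfbp3, chr11:7213874-7214173, minus strand: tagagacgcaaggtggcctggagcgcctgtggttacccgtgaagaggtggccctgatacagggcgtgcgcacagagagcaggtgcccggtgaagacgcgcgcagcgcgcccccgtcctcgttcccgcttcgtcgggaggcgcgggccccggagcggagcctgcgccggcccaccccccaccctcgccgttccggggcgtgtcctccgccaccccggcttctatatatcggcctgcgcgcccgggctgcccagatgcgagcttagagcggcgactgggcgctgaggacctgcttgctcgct
The Igf2 window holds 2 GC boxes and the other windows shown hold 0. Over all 13 windows of the 10 genes, 7 held at least 1, against 35.7% of 32851 mouse windows of this length. The letters TATAAA were in 0 of the 13 windows on either strand (13.6% of all windows), the forkhead site TGTTTAC in 0 (3.65%), and the SOX core AACAAT in 1, another Igf2 window (10.7%). These counts describe letters in these windows and say nothing of a factor's binding.

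Among the binding proteins, Igfbp3, the main carrier of IGF in blood, read 8.41 and 8.39 in Sertoli cells against 6.74 and 6.04 in pre-granulosa cells on its brighter probe set (1423062_at). Testes read 10.60 and 10.77, and ovaries 9.68 and 10.14. XY arrays were above XX arrays in both sets without overlap, and the second probe set (1458268_s_at) kept that order. That probe set read 7.33 and 6.78 on Sertoli arrays against 6.52 and 5.65 on pre-granulosa arrays, and 9.18 and 9.43 in testes against 8.08 and 8.38 in ovaries. The differences of the brighter one were 2.01 ± 0.27 in sorted cells and 0.78 ± 0.27 in gonads, neither of them called (limma adjusted p = 0.0127 and 0.426), and those of the dimmer one were 0.97 ± 0.34 and 1.07 ± 0.34 (limma adjusted p = 0.189 and 0.357). Without pre-granulosa replicate 1 the comparison of sorted cells was called, at 2.36 (adjusted p = 0.00754).

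Igfbp5, which binds IGF in the extracellular matrix, gave different pictures on its probe sets. On 1422313_a_at the Sertoli arrays read 5.72 and 5.04 and the pre-granulosa arrays 7.84 and 9.79, with 11.49 and 10.37 in testes and 9.50 and 10.07 in ovaries. On 1452114_s_at the Sertoli arrays read 8.73 and 9.29 and the pre-granulosa arrays 8.73 and 10.59, so that the groups met, while all gonad arrays read 12.27 to 12.33. The differences in sorted cells were -3.43 ± 0.70 and -0.65 ± 0.57, neither called (limma adjusted p = 0.0462 and 0.634). The suffix s marks a probe set whose probes match more than 1 transcript.

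The lower of the pre-granulosa readings of Igfbp5 was that of replicate 1 on both probe sets. On that array the 3' control probes exceeded the 5' ones by more than on any other of the 8, by 3.08 (log2) for actin and 3.68 for Gapdh, as happens when RNA is shorter, against 1.70 and 1.24 in replicate 2 and 1.94 to 2.69 over both genes in the Sertoli arrays. Some interstitial and stromal markers also read lower in replicate 1 than in replicate 2, as Col1a1 (7.23 and 11.42) and Nr2f2 (5.80 and 9.82). Col3a1 (9.24 and 8.98), Gli1, Ptch1 and Tcf21 did not. The part of RNA length and of cell content in the Igfbp5 differences was not tested.

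Igfbp2, a binding protein of fetal tissues, had the largest gonad difference toward the ovary among the 10 genes. It read 7.80 and 7.67 in Sertoli cells against 7.93 and 7.35 in pre-granulosa cells. Testes read 8.13 and 8.33, and ovaries 9.23 and 9.75. The sorted groups overlapped and the gonads did not, with -1.25 ± 0.26 for testis minus ovary (limma adjusted p = 0.150) and 0.10 ± 0.26 for Sertoli minus pre-granulosa (limma adjusted p = 0.910). Igfbp2 and Igfbp5 are neighbours on chromosome 1, as Igfbp3 and Igfbp1 are on chromosome 11.

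The receptors came next. Igf1r, the kinase receptor of both IGFs, had 5 probe sets. The brightest (1428967_at) read 6.97 and 6.22 in Sertoli cells against 7.15 and 8.24 in pre-granulosa cells, but 10.10 and 9.58 in testes and 8.22 and 8.29 in ovaries. Here XY lay below XX in sorted cells and above XX in gonads, without overlap in either. The differences were -1.10 ± 0.42 (limma adjusted p = 0.229) and 1.59 ± 0.42 (limma adjusted p = 0.257), and the difference between them was -2.69 ± 0.60 and was not called (limma adjusted p = 0.162). The other 4 probe sets differed by -0.12 to 0.09 in sorted cells and by -0.20 to 0.75 in gonads.

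**Figure D3:**
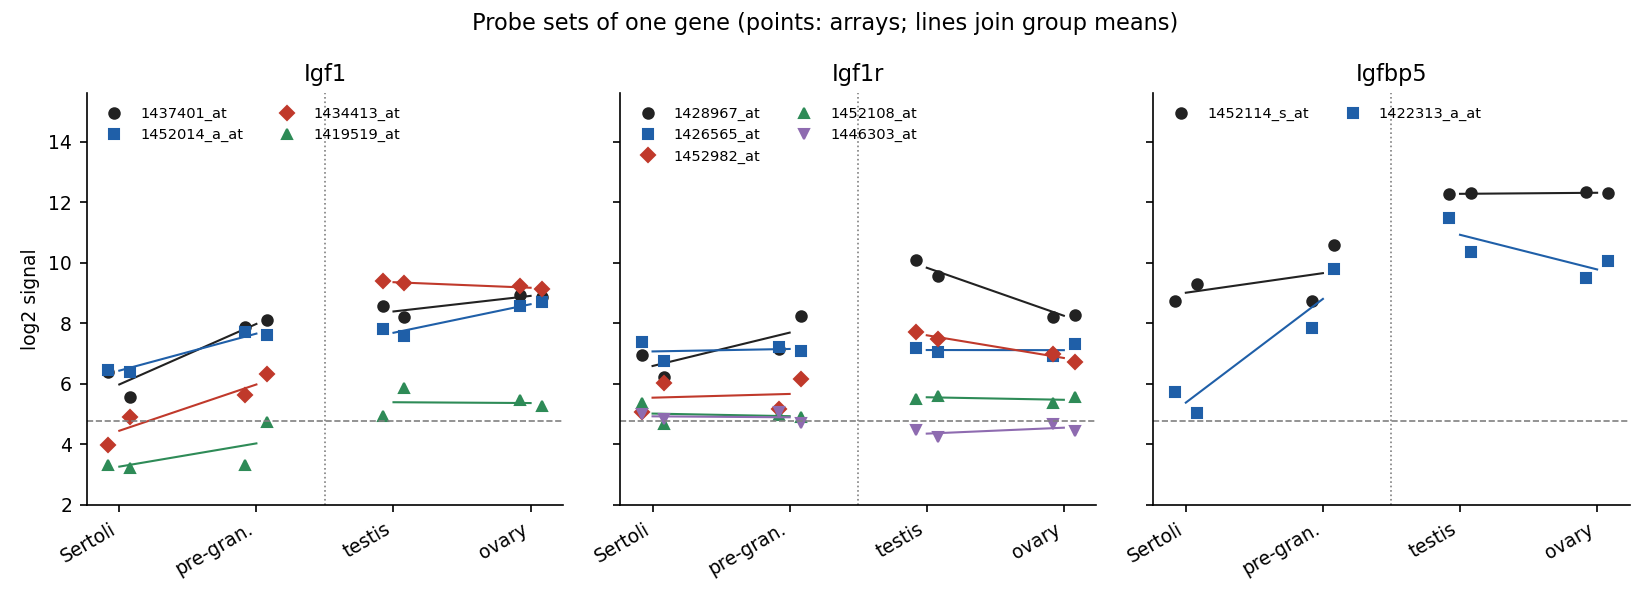
Log2 signal of every probe set of Igf1, Igf1r and Igfbp5, with 1 point per array and lines joining the group means within the sorted arrays and within the gonad arrays. The Igf1 probe sets above background on all arrays (1437401_at and 1452014_a_at) slope upward toward pre-granulosa cells, the brightest Igf1r probe set (1428967_at) slopes in opposite directions in the 2 sets, and the sorted difference is -3.43 on Igfbp5 1422313_a_at and -0.65 on 1452114_s_at. The dashed line marks the background level of 4.78.

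Insr, the insulin receptor, read 7.74 and 7.89 in the Sertoli arrays, 8.38 and 8.02 in the pre-granulosa arrays, 8.46 and 8.30 in testes and 8.36 and 8.02 in ovaries on its brightest probe set. Both Sertoli readings were below the pre-granulosa readings, with a difference of -0.39 ± 0.20 (limma adjusted p = 0.374), and the gonads overlapped. The other Insr probe sets were dimmer, with readings of 3.99 to 6.59 over all arrays and differences in sorted cells of -1.17 ± 0.53 (1421380_at) and 0.31 ± 0.31 (1450225_at). Igf2r, the clearance receptor of IGF2, read 10.35 and 10.24 in the Sertoli arrays, 10.39 and 10.98 in the pre-granulosa arrays, 12.04 and 12.13 in testes and 11.91 and 12.06 in ovaries. Both Sertoli readings were below the pre-granulosa readings here too. The difference of -0.39 ± 0.22 was smaller than the SD of the pre-granulosa arrays (0.41) and was not called (limma adjusted p = 0.421). A dimmer Igf2r probe set (1424112_at) read 5.15 and 5.66 on Sertoli arrays against 6.88 and 5.44 on pre-granulosa arrays, which overlapped.

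Irs1, the adaptor that links the receptors to PI3K, read 7.31 and 8.47 in Sertoli cells against 8.46 and 9.62 in pre-granulosa cells, so that the groups overlapped (-1.15 ± 0.49, limma adjusted p = 0.283), and gonads read 9.96 and 9.83 in testes against 10.26 and 9.98 in ovaries. Irs2, a related adaptor, read 5.25 and 5.41 in Sertoli cells against 5.17 and 4.82 in pre-granulosa cells, just above background (0.33 ± 0.17, limma adjusted p = 0.360), and its gonad readings were 5.87 and 5.83 in testes against 5.71 and 5.76 in ovaries. Neither adaptor was called in gonads.

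The lower Igf2 and Igf1 of Sertoli cells were set beside markers of cell types outside the supporting lineage. Of 9 interstitial and stromal markers, 8 read above background on both Sertoli arrays and 8 on both pre-granulosa arrays. Their summed signal was 13.64 to 13.72 in Sertoli cells against 12.49 to 13.12 in pre-granulosa cells on the log2 scale, with 0 called. Ptch1, the hedgehog receptor, was the brightest of the 9, with 13.13 and 13.07 in Sertoli cells against 12.17 and 12.08 in pre-granulosa cells. It therefore weighed most in the sum, which hides a spread between the pre-granulosa arrays. Col1a1 read 11.55 and 11.27 in Sertoli cells against 7.23 and 11.42 in pre-granulosa cells. Nr2f2 read 9.22 and 9.71 against 5.80 and 9.82. The sorted groups overlapped for both genes. Pdgfra (-0.68), Col3a1 (-0.33) and Gli1 (-0.16) had the sign of the ligands, with no overlap of the arrays for Pdgfra and Col3a1, and the other 6 had the opposite sign. Of 5 surface epithelium and mesonephric markers, 3 read above background in each of these groups. Their sum was 10.59 to 10.69 in Sertoli cells against 11.89 to 12.59 in pre-granulosa cells, with 0 called. Emx2 (-1.64, limma adjusted p = 0.0196), Krt19 (-1.49, limma adjusted p = 0.0365) and Pax8 (-1.09) had the sign of the ligands with no overlap of the arrays, while Lrrn4 (0.07) and Upk3b (0.45) did not and stayed at most 5.19 on the sorted arrays. Macrophage markers summed to 9.996 to 11.85 in Sertoli cells against 7.95 to 8.24 in pre-granulosa cells, with 6 and 2 of 8 above background and 1 of 8 called, and endothelial markers to 9.28 to 9.59 and 8.32 to 9.10, with 1 of 8 called. Erythroid markers summed to 10.31 to 10.50 in Sertoli cells against 10.46 to 11.59 in pre-granulosa cells, and fetal Leydig cell markers to 10.83 to 11.61 and 9.31 to 9.81, with 0 called in either list. S phase genes summed to 14.34 to 14.36 in Sertoli cells against 13.09 to 13.30 in pre-granulosa cells, with 1 of 8 called, Mcm7. The part of these cells and states in the IGF differences was not tested.

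The comparison of testis with ovary asked the same of whole organs. No probe set of the 10 genes was called by limma (0 of 23, against 0.215% of all probe sets), and 5 of 23 had an unadjusted p under 0.05, against 9.31% of all. The median difference was 0.03 over the 23 probe sets and -0.02 over all. Arrays of testis and ovary did not overlap for 16 of 23 probe sets, with 8 higher and 8 lower in testes, against 50% of all probe sets. For Sertoli and pre-granulosa arrays this held for 13 of 23, with 3 higher and 10 lower in Sertoli cells, against 41.4% of all. The test of whether the sorted difference departed from the gonad difference called 0 of 23 probe sets and 0% of all by limma, with 8 of 23 at an unadjusted p under 0.05 against 11.4% of all.

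Against whole gonads, most probe sets of these genes read low in Sertoli cells and fewer did so in pre-granulosa cells. The difference of sorted minus gonad means was taken less the median of all probe sets, which was -0.21 for Sertoli minus testis and -0.25 for pre-granulosa minus ovary. For Sertoli minus testis, 14 of 23 probe sets were more than 1 log2 unit below that median with arrays that did not overlap, against 14% of all probe sets. For pre-granulosa minus ovary, 7 of 23 were, against 12.8%. The medians over the 23 probe sets were -1.58 and -0.72.

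Igfbp5 had the lowest value in Sertoli cells, -5.34 on 1422313_a_at and -3.06 on 1452114_s_at, with -0.72 and -2.40 in pre-granulosa cells. Igfbp3 was low in both, at -2.07 in Sertoli and -3.26 in pre-granulosa cells. Igf2 was at -2.71 in Sertoli cells against -0.29 in pre-granulosa cells, and Igf2r at -1.58 and -1.05. On the upper side, more than 1 log2 unit above the median with arrays that did not overlap, stood 1 of 23 probe sets in each comparison, both of them dim ones of Insr. For Sertoli minus testis this was 1450225_at, against 6.51% of all probe sets, whose readings were under background on both testis arrays and 1 Sertoli array. For pre-granulosa minus ovary it was 1421380_at, against 6.91%, whose ovary readings of 4.63 and 4.79 lay at background, so that neither difference has a size.

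**Figure D4:**
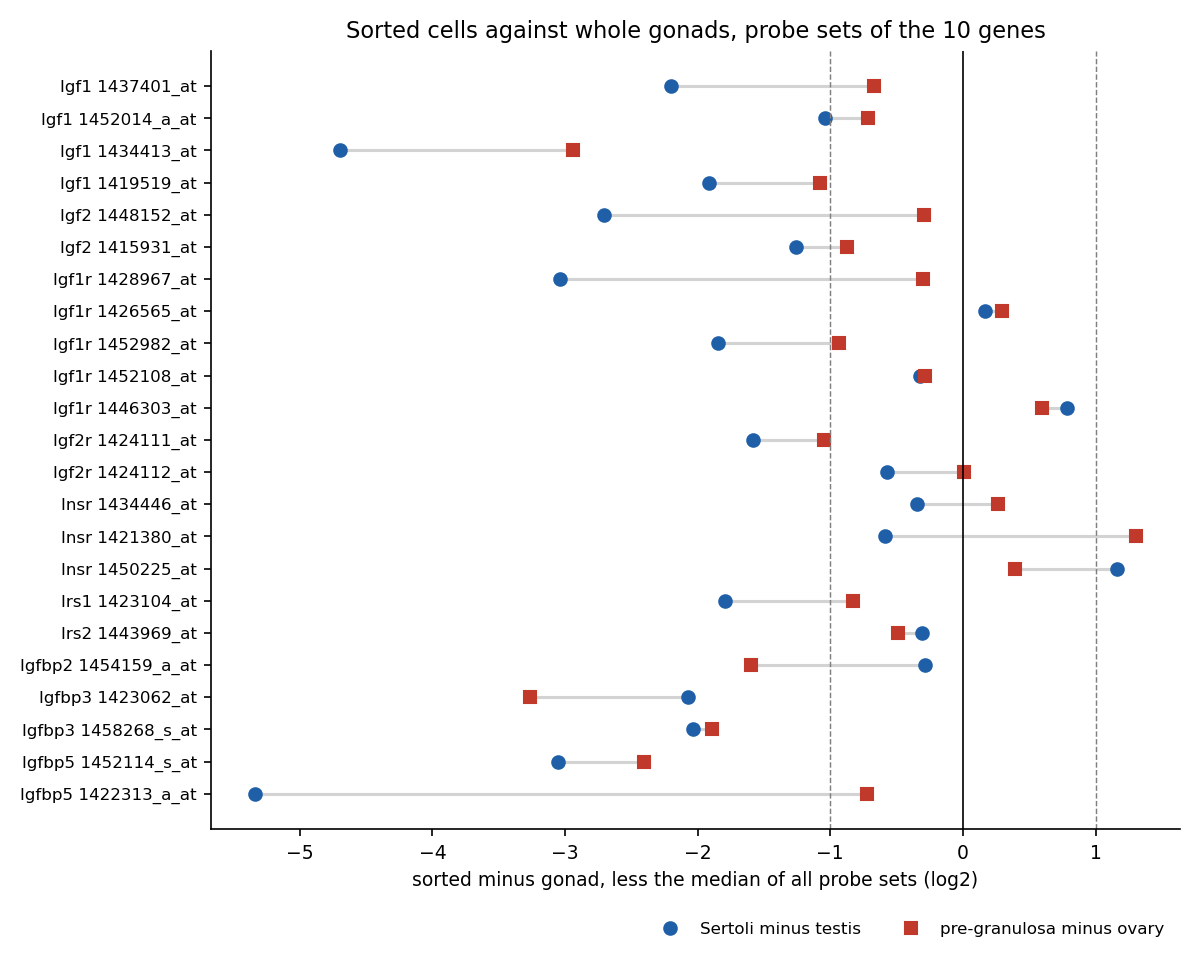
Sorted minus gonad difference less the median of all probe sets, on the log2 scale, for the 23 probe sets, with circles for Sertoli minus testis and squares for pre-granulosa minus ovary. Dashed lines mark 1 log2 unit on either side of the median. Circles of 14 probe sets and squares of 7 lie beyond the lower line with arrays that do not overlap.

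Whole gonads also held the cells that the sort removed. Interstitial and stromal markers summed to 15.20 in both testes and 14.45 to 14.66 in ovaries, and germ cell markers to 12.97 to 13.19 in testes and 13.46 to 13.50 in ovaries, against at most 13.72 and 8.50 in sorted cells. The 9 interstitial and stromal markers had a median of -2.31 for Sertoli minus testis and -2.99 for pre-granulosa minus ovary, less the median of all probe sets. They ran from -5.28 for Pdgfra to 0.13 for Ptch1 in Sertoli cells, and from -4.12 for Nr2f2 to 0.74 for Ptch1 in pre-granulosa cells. The excess of 3' over 5' signal of Gapdh was 1.94 and 2.69 on Sertoli arrays and 3.68 and 1.24 on pre-granulosa arrays, against 0.720 to 1.55 on gonad arrays. For actin the sets overlapped more. It was 2.17 and 2.51 on Sertoli arrays and 3.08 and 1.70 on pre-granulosa arrays, against 1.57 to 2.33 on gonad arrays. The part of these cells and of RNA quality in the lower sorted readings was not tested.

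Other genes of the pathway were read from a list of 68, of which 58 had a probe set of their own here. In sorted cells 4 of 58 were called, 3 higher and 1 lower in Sertoli cells, against 2.67% of all genes, with 1.62% called higher and 1.05% lower. An unadjusted p under 0.05 was reached by 24 of 58, against 22.4% of all genes. The median difference was 0.30 over the 58 genes and 0.04 over all genes. Socs2, a brake on growth hormone signalling, read 12.31 and 12.55 in Sertoli cells against 8.65 and 9.58 in pre-granulosa cells, 9.96-fold higher (3.32 ± 0.31, limma adjusted p = 0.00412). Of its other 5 probe sets, 1438470_at (3.05) and 1449109_at (4.15) were called as well (limma adjusted p = 0.00215 and 0.00730). Stc2, a stanniocalcin that inhibits the IGFBP protease PAPP-A, read 8.64 and 8.85 in Sertoli cells against 6.35 and 6.65 in pre-granulosa cells (2.25 ± 0.19, limma adjusted p = 0.00283). Its other probe sets were not called, at 1.17 and 0.19. In both genes the Sertoli arrays were clear of the pre-granulosa arrays, and testes lay above ovaries without a call, by 1.28 for Socs2 and 1.10 for Stc2.

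Pik3r3, a regulatory subunit of PI3K, was the gene that was lower in Sertoli cells, by 7.10-fold: 7.37 and 7.20 in Sertoli cells against 9.79 and 10.44 in pre-granulosa cells (-2.83 ± 0.25, limma adjusted p = 0.00348). Map2k1, the MAP kinase kinase MEK1, was 4.17-fold higher in Sertoli cells, with 9.01 and 9.58 against 7.13 and 7.35 in pre-granulosa cells (limma adjusted p = 0.00630). Its gonad readings were 9.40 and 9.60 in testes and 9.46 and 9.38 in ovaries, which overlapped. All 4 calls were lost when either testis or either ovary array was left out (adjusted p of 0.0108 to 0.0271), and without Sertoli replicate 2 (0.0177 to 0.0250). Without Sertoli replicate 1 the Socs2, Stc2 and Pik3r3 calls were lost, and without pre-granulosa replicate 1 that of Map2k1 (adjusted p = 0.0168).

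In gonads 1 of 58 was called, against 0.352% of all genes. It was Igfbp7, a low-affinity IGF-binding protein of vessels and stroma, 7.04-fold higher in testes, with 10.21 and 10.24 in testes against 7.22 and 7.60 in ovaries (limma adjusted p = 0.00996). Its other 2 probe sets were not called (1.46 and 1.03). In sorted cells Igfbp7 read 7.85 and 8.13 in Sertoli cells against 5.79 and 6.37 in pre-granulosa cells and missed the threshold (1.91 ± 0.25, limma adjusted p = 0.0110). Without any 1 of the testis, ovary or Sertoli arrays it was not called in gonads (adjusted p of 0.0262 to 0.145). Fetal Leydig cell markers were higher in testes as well, with sums of 13.32 to 13.55 in testes against 9.40 to 9.54 in ovaries and 3 of 4 called. Interstitial and stromal markers summed to 15.20 in testes against 14.45 to 14.66 in ovaries, with 0 of 9 called and the largest differences in Ptch1 (1.54), Gli1 (1.53), Tcf21 (1.42) and Pdgfra (0.93). Endothelial markers summed to 10.95 to 11.13 in testes against 11.10 to 11.16 in ovaries. The part of these cells in the Igfbp7 difference was not tested.

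**Figure D5:**
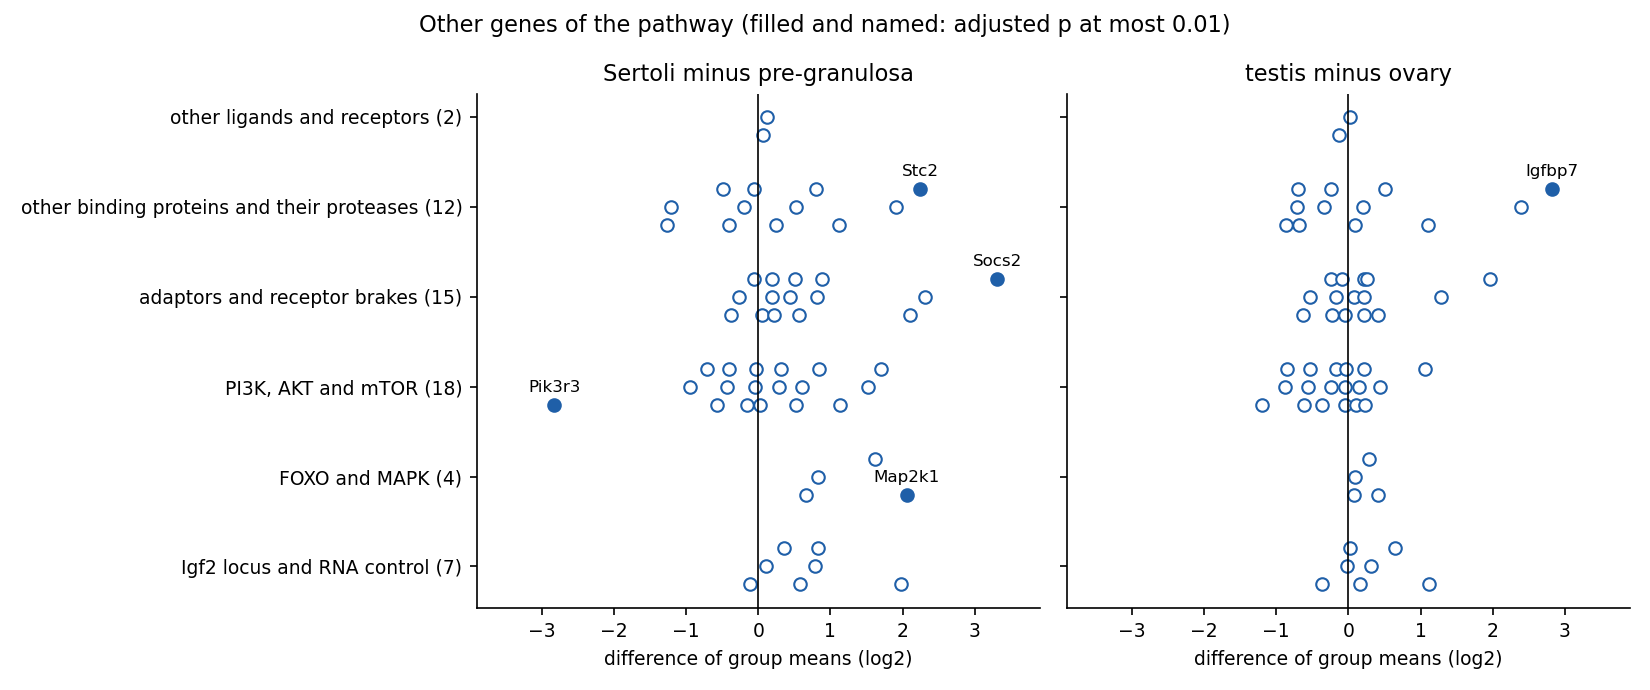
Difference of group means on the log2 scale for the other 58 genes of the pathway, 1 point per gene in 6 groups by role, Sertoli minus pre-granulosa on the left and testis minus ovary on the right. Filled and named points passed limma's test at an adjusted p of 0.01: Stc2, Socs2, Map2k1 and Pik3r3 on the left and Igfbp7 on the right.

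By role, the calls in sorted cells were 1 of 12 binding proteins and their proteases, 1 of 15 adaptors and receptor brakes, 1 of 18 genes of PI3K, AKT and mTOR, 1 of 4 FOXO and MAPK genes, and 0 of 7 genes of the Igf2 locus and its RNA control and 0 of 2 other ligands and receptors. Further genes with the largest differences of their group were not called. Among the binding proteins, Igfbp4 stood at -1.27 ± 0.20 in sorted cells and Stc1 at 2.39 ± 0.39 in gonads. Grb14, an adaptor that inhibits the insulin receptor, differed by 2.11 ± 0.27 in sorted cells and 1.97 ± 0.27 in gonads. In the kinase group, Pik3r1 stood at -1.20 ± 0.22 and Rictor at 1.07 ± 0.68 in gonads. The other Pik3r1 probe sets did not share that sign, at 0.86 (1425515_at), 0.28 (1438682_at) and -0.49 (1451737_at). Those of Rictor ran from -0.10 to 0.73. Foxo4, a transcription factor that AKT keeps out of the nucleus, was at 0.82 ± 0.14 in sorted cells. Igf2bp3, which binds Igf2 RNA, was at -0.37 ± 0.18 in gonads, with the opposite sign in sorted cells, 0.57 ± 0.18. The other Igf2bp3 probe sets ran from -0.42 to 1.02 in gonads and from -0.51 to 1.79 in sorted cells. Plag1, an activator of Igf2, read under background on all sorted arrays and both ovary arrays and at 5.15 and 5.44 in testes.

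For 6 further genes the size of the difference in sorted cells depended on which arrays were kept. Hmga2, which acts upstream of Igf2 in growth control, read 10.79 and 11.30 in Sertoli cells against 7.91 and 10.21 in pre-granulosa cells, a difference of 1.98 ± 0.68 that was 0.83 without pre-granulosa replicate 1. In the same way Rheb, the activator of mTOR, stood at 1.70 ± 0.57 and at 0.77 without pre-granulosa replicate 1, and Ctcf, which insulates the Igf2 locus, at 0.82 ± 0.36 and 0.26. Pre-granulosa replicate 1 is the array with the largest excess of 3' over 5' control signal. The part of RNA length or of cell content in these shifts was not tested. A second Ctcf probe set (1449042_at) had the opposite sign, at -1.41 (limma adjusted p = 0.124). Foxo1, also held by AKT, read 8.68 and 9.22 in Sertoli cells against 8.61 and 6.05 in pre-granulosa cells, a difference of 1.62 ± 0.76 that was 0.33 without pre-granulosa replicate 2. The other Foxo1 probe sets were at 0.13, 0.43 and -0.02 in sorted cells. Eif4ebp1, a target of mTOR, stood at 1.53 ± 0.43 and at 0.84 without pre-granulosa replicate 2. Sh2b2, an adaptor of INSR, stood at 2.31 ± 0.58 and ranged from 1.54 to 3.08 over the omissions of 1 array. Its other probe set (1453389_a_at) was at -0.07. With the other pre-granulosa array left out, Hmga2, Rheb, Foxo1 and Eif4ebp1 passed the threshold (limma adjusted p of 0.00367 to 0.00807, with differences of 2.22 to 3.13), and that fit rests on 1 pre-granulosa array. Grb10 and Plagl1 are imprinted genes, named for that reason after their values were seen. On their brightest probe sets they differed by 0.19 and 0.11 in sorted cells and by 0.26 and 0.32 in gonads. Their other probe sets differed by more in sorted cells for the most part, without a call. These stood at -0.07 and 1.19 for Grb10 and at -0.87 and 0.87 for Plagl1.

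For each called probe set the 5 genes with the most similar pattern were taken by Pearson's r over the 8 arrays, each set centred on its own mean, so that r mostly reflects the group differences. The genes nearest to Igf2 were Rsph1, D7Ertd128e, Mzt2, Sdc1 and Klf7, with r of 0.992 to 0.996. Of these only Klf7, a transcription factor, was called by limma, at -2.58 for Sertoli minus pre-granulosa and -0.38 for testis minus ovary. The genes nearest to Igf1 1452014_a_at were Kcnip4, Tmem174, Gng13, Cgn and Foxl2os, with r of 0.990 to 0.999. All of them were lower in Sertoli cells, set against pre-granulosa cells (limma adjusted p of 0.00649 or less). Their differences ran from -6.65 to -2.08 in sorted cells and from -5.06 to -1.56 in gonads. Genes of both lists were chosen for likeness to a called probe set on the same arrays. Their direction and p-values are therefore no separate finding.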

How the data were processed

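Transcripts were measured on 8 Mouse Genome 430v2.0 arrays, hybridised with about 2.5 µg of biotin-labelled cDNA made from about 20 ng of RNA per sample, per the labels' protocols. The authors deposited log2 signals, and the submitters' processing notes name RMA without a version. The ranked values of the sorted arrays differed from each other by at most 0.175 and those of the gonad arrays by at most 0.146, while the sets were a median of 0.383 apart, a step that no label records. Sorted and gonad levels were therefore not tested against each other.

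Of 45101 probe sets, 64 were array controls and 45037 were tested, with values as deposited. Testing used limma 3.58.1 (R 4.3.3). Each group had its own mean in lmFit, all 8 arrays shared the spread, eBayes moderated it, and two-sided p-values were adjusted by Benjamini-Hochberg across the 45037 probe sets and called at 0.01, the study's false discovery rate. The 4 residual degrees of freedom pool groups whose replicate SD (root mean square) was 0.428 for Sertoli cells, 0.531 for pre-granulosa cells, 0.198 for testes and 0.299 for ovaries, and the number of arrays limits the precision. Symbols came from the array annotation. A gene is represented by its single-symbol probe set of highest mean, and levels of different probe sets are not compared. Marker sums are log2 of summed linear signals. The procedure was tested on simulated data.

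The genes and lists were chosen with earlier results of these data known. Named are the 10 genes with every probe set, the called pathway genes, for each role up to 3 with the largest differences in each of the 2 comparisons, and the 5 genes nearest each called probe set. Of 68 listed pathway genes, 10 were not analysed here. Promoter windows are from RefSeq, GRCm38.p6, a build used for names, neighbours and these windows only. Alternatives were other normalizations, filters, moderation, weights, a replicate block, another threshold, and the omission of each array.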

Additional observations from a re-analysis of the deposited data

How the results depend on the processing

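Of 1354 values of the 23 probe sets under alternatives, 26 lost a call, 4 gained one and 0 were called with the opposite sign, while 25 changed sign without a call in either setting. For Sertoli minus pre-granulosa, the 2 called probe sets became 1 when arrays were quantile normalized together or by set, with either filter on dim probe sets, with trend and robust moderation and with a weight per group. They became 0 with no moderation and with the 4 sorted arrays alone, and 5 at a threshold of 0.05. They ranged from 0 to 2 over the omissions of 1 array. The 4 called pathway genes became 0 with no moderation and with the 4 sorted arrays alone, 1 with a weight per group and 8 at 0.05, and ranged from 0 to 7 over the omissions. For testis minus ovary, the 1 called pathway gene became 0 with quantile normalization over all arrays, trend and robust moderation, no moderation, the 4 gonad arrays alone or 16 added before log2, and 2 with a weight per group or at 0.05, and ranged from 0 to 1 over the omissions. The cause of these changes was not tested. The count over all probe sets in sorted cells, 816, was 13 with no moderation, 0 with the 4 arrays alone, 264 with a weight per group, 2476 at 0.05 and 108 to 1588 over the omissions. In gonads the 97 were 0, 80, 394, 319 and 0 to 93 in the same order.

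Replicate numbers pair no samples in the labels, and deviations of same-numbered samples correlated at -0.156 to 0.049 between groups. With the replicate block the called probe sets of the 10 genes in sorted cells were 0, the called pathway genes 2 and all called probe sets 341. In gonads the block left 0 pathway genes and 17 probe sets. For the difference of the comparisons, the 4 arrays of either set alone could not give a value.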

Other observations

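The probe set shared by Igf2r and Airn, the antisense RNA of the Igf2r locus, read 5.82 and 6.08 in the Sertoli arrays, 6.20 and 5.83 in the pre-granulosa arrays, 5.80 and 5.83 in testes and 5.95 and 5.89 in ovaries. Pdpk1, the kinase that activates AKT, differed by 0.02 between Sertoli and pre-granulosa cells on its brightest probe set, while a second one (1416501_at) was lower in Sertoli cells (-2.91 on the log2 scale, limma adjusted p = 0.00720). Pdpk1 is named after its values were seen.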
